A study of Mus musculus with 6 samples.

Results

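The serum amyloid A genes Saa1, Saa2, Saa3 and Saa4, the orosomucoid genes Orm1, Orm2 and Orm3 and the serum amyloid P gene Apcs were followed in mouse liver tumours in which MYC had been switched off or was still on. These 8 genes were taken by symbol from a table of 52459 rows, and each of the 8 had its own row. RNA had been sequenced from 3 MYC_Off tumours, taken 4 days after MYC inactivation, and from 3 MYC_On tumours with MYC active. All 6 tumours carried the MYC-LAP-tTA genotype, in which the liver promoter LAP drives a tetracycline transactivator that keeps a MYC transgene on. The labels name no agent for the inactivation, no strain, sex or age, and do not give how many animals the tumours came from, so the p-values rest on the spread between 6 libraries, part of which may be technical. The promoter acts in hepatocytes, whereas the RNA came from whole tumour tissue with its other cells.

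Serum amyloid A, orosomucoid and serum amyloid P are secreted plasma proteins of the acute-phase response, in which interleukin-6 and interleukin-1 act on hepatocytes through STAT3, NF-kappaB and C/EBP factors. Saa1 and Saa2 encode the acute-phase serum amyloid A that travels on high-density lipoprotein, and Saa3 is in mice also made outside the liver, by macrophages and fat cells among others. Saa4 encodes the form made constitutively by the liver. The Orm genes encode alpha-1-acid glycoprotein, a lipocalin that binds drugs and lipids in plasma. Apcs encodes a pentraxin that coats amyloid fibrils and is the strongly inducible pentraxin of the mouse, where C-reactive protein is not.

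The Saa genes lie together on mouse chromosome 7 within 42316 bases (mm10, 46711998 to 46754313), in the order Saa3, Saa4, the pseudogene Saa-ps, Saa1 and Saa2. Saa3 (46711998 to 46715700), Saa4 (46727998 to 46732603) and Saa1 (46740497 to 46742980) are on the minus strand and Saa2 (46751790 to 46754313) on the plus strand, so that Saa1 and Saa2 point away from each other with 8810 bases between their starts. The Orm genes lie on the plus strand of chromosome 4 within 21319 bases, as Orm1 (63344560 to 63348163), Orm3 (63356162 to 63359511) and Orm2 (63362449 to 63365878), with the pseudogene Gm11212 between Orm1 and Orm3. Apcs is on the minus strand of chromosome 1 (172893961 to 172895041). All 8 are annotated as protein coding, and no exon of theirs overlaps an exon of another gene on either strand.

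Several of these genes are near copies of each other. Coding sequences were 95.1% identical between Saa1 and Saa2, 89.9% between Orm1 and Orm2, 87.9% between Orm2 and Orm3 and 86.0% between Orm1 and Orm3. Saa3 and Saa4 stood further off, at 74.1% and 63.8% identity to Saa1. Of all windows of 50 bases along the principal transcript, 79.6% of Orm1, 77.3% of Orm2, 85.2% of Saa1 and 90.9% of Saa2 occurred in no annotated transcript of another gene. With windows of 100 bases these shares were 93.0% for Orm1 and Orm2 and 100% for Saa1 and Saa2. The windows of Apcs were all its own at both lengths. The sources used here give neither the read length nor the treatment of multiply matching reads, so the split of reads between Saa1 and Saa2, and between the Orm genes, is uncertain. RefSeq also lists Saa2 among the older names of Saa1 and Saa1 among those of Saa2, and the annotation behind the rows is not named, so which of this pair each row holds is uncertain as well. The pseudogenes hardly drew reads: Saa-ps had 0 in MYC_Off and 2 in MYC_On, and Gm11212 had 1 in MYC_Off and 0 in MYC_On.

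The promoters of 7 of the 8 genes were read from RefSeq (GRCm38.p6, 250 bases before to 50 bases after the start, on the gene's strand). Those of the Saa1 and Saa2 pair, of Saa3, whose reads were spread differently over the tumours, and of Orm2 and Orm3, near copies with very different read numbers, are shown with each match to the C/EBP motif TTGCNNAA, on either strand, in capitals.
Saa1, chr7:46742931-46743230, minus strand: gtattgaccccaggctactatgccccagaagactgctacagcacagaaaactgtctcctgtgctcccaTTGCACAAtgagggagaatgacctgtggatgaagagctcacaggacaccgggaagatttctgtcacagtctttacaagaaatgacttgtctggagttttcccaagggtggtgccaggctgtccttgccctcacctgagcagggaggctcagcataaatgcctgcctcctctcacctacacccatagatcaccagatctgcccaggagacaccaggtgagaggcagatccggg
Saa2, chr7:46751583-46751882, plus strand: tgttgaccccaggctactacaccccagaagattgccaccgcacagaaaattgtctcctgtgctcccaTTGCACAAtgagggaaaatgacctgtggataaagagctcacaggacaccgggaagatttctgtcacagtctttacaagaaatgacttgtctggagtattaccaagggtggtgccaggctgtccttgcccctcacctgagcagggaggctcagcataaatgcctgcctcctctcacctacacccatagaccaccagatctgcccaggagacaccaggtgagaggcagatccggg
Saa3, chr7:46715627-46715926, minus strand: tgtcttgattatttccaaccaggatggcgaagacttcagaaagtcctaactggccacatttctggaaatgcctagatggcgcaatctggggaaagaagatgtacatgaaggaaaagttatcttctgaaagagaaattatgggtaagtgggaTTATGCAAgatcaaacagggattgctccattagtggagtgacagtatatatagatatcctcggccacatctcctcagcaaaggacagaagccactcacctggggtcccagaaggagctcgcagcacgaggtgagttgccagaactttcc
Orm2, chr4:63362199-63362498, plus strand: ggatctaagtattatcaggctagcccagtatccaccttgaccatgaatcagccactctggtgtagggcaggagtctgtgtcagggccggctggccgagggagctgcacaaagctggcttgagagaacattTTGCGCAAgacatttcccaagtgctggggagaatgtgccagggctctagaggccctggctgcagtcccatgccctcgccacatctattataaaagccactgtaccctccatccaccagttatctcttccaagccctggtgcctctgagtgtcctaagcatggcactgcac
Orm3, chr4:63355908-63356207, plus strand: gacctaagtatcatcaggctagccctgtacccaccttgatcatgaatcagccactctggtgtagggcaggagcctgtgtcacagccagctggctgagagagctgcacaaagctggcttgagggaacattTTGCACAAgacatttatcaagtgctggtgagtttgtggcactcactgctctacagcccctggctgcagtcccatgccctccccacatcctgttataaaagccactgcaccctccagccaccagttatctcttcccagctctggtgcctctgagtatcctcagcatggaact

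The C/EBP letters were found in 6 of the 7 promoters, against 10.8% of 32851 RefSeq mouse promoters of the same length. The promoter without them was that of Apcs. In Saa1 and Saa2 the match TTGCACAA began 182 and 183 bases before the start, within promoters that were 95.3% identical. In Orm2 the match TTGCGCAA began 120 bases and in Orm3 the match TTGCACAA 121 bases before the start, with 86.2% identity between the promoters, and both also held the TATA box letters TATAAA (13.6% of all promoters). The Saa3 match TTATGCAA, on the other strand, began 99 bases before the start, and Saa3 and Saa1 promoters were 45.9% identical. The STAT motif TTCNNNGAA was found in Apcs only, 244 bases before the start (8.3% of all promoters). The NF-kappaB consensus (8.46%) and the glucocorticoid receptor motif GNACANNNTGTNC (0.475%) had no match in the 7 windows, both strands being searched for each motif. No binding was measured, and a match of letters is a description of the window.

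Libraries held 16292718 to 19265623 reads assigned to genes, so that 1 read stood for 0.0519 to 0.0614 on the counts-per-million scale (CPM). Levels below are CPM after TMM scaling, which sets each library against the bulk of its genes, and log2 fold changes are MYC_Off over MYC_On with their standard errors (SE) and adjusted p from the quasi-likelihood test of edgeR, adjusted by the Benjamini-Hochberg method over 14130 genes and called at 0.05. Myc itself stood at 74.8, 10.2 and 18.7 CPM in MYC_Off and at 779, 1018 and 854 CPM in MYC_On (log2 fold change -4.67, SE 0.80, adjusted p = 0.0035). Whether reads of the transgene count on the Myc row is not stated in the sources used here. Defining hepatocyte markers were present in both groups, and all 8 listed rose, with summed levels of 105400 to 278500 CPM in MYC_Off and 3638 to 8151 CPM in MYC_On. In RNA of whole tissue, a larger share of hepatocytes and more RNA per hepatocyte cannot be told apart. Markers of other cells rose too: 5 of 5 erythroid, 6 of 7 stellate cell and fibroblast, 4 of 5 endothelial, 4 of 5 T cell and 2 of 2 B cell markers tested were called higher, with median log2 fold changes of 4.58, 2.80, 2.89, 4.58 and 3.80, while of 4 cholangiocyte markers 1 rose and 1 fell. T cell markers summed to 173, 18.8 and 4.76 CPM in MYC_Off replicates 1, 2 and 3, against 3.4 to 4.9 CPM in MYC_On. B cell markers summed to 104, 13.3 and 8.07 CPM in MYC_Off, against 2.33 to 4.54 CPM in MYC_On. The rise of both sums thus rested mostly on MYC_Off replicate 1. The part of these other cells in the results was not tested. A few abundant transcripts weighed on the scaling, the 20 most abundant genes taking 29.9% to 39.1% of reads in MYC_Off and 11.7% to 19.2% in MYC_On. The median log2 fold change of all tested genes was 0.18 with TMM and -0.56 with library size only.

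All 8 genes were higher in each MYC_Off tumour than in any MYC_On tumour, and 7 of 7 tested rose. Among all tested genes 29.9% were called higher, 22.8% lower, 33.2% were higher in MYC_Off with no overlap between groups and 29.8% lower with no overlap. Orm3 did not pass the filter on low counts. The log2 fold changes of the tested 7 ran from 4.80 for Saa4 to 9.23 for Orm1 (median 7.38), and placed Orm1 at rank 8, Orm2 at 18, Saa1 at 32, Saa2 at 111, Saa3 at 214, Apcs at 278 and Saa4 at 516 of 14130 genes ordered by fold change. Together the 8 genes took 0.116%, 0.340% and 0.190% of all reads in MYC_Off replicates 1, 2 and 3, against 0.00837%, 0.00266% and 0.00391% in MYC_On replicates 1, 2 and 3.

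**Figure D1:**
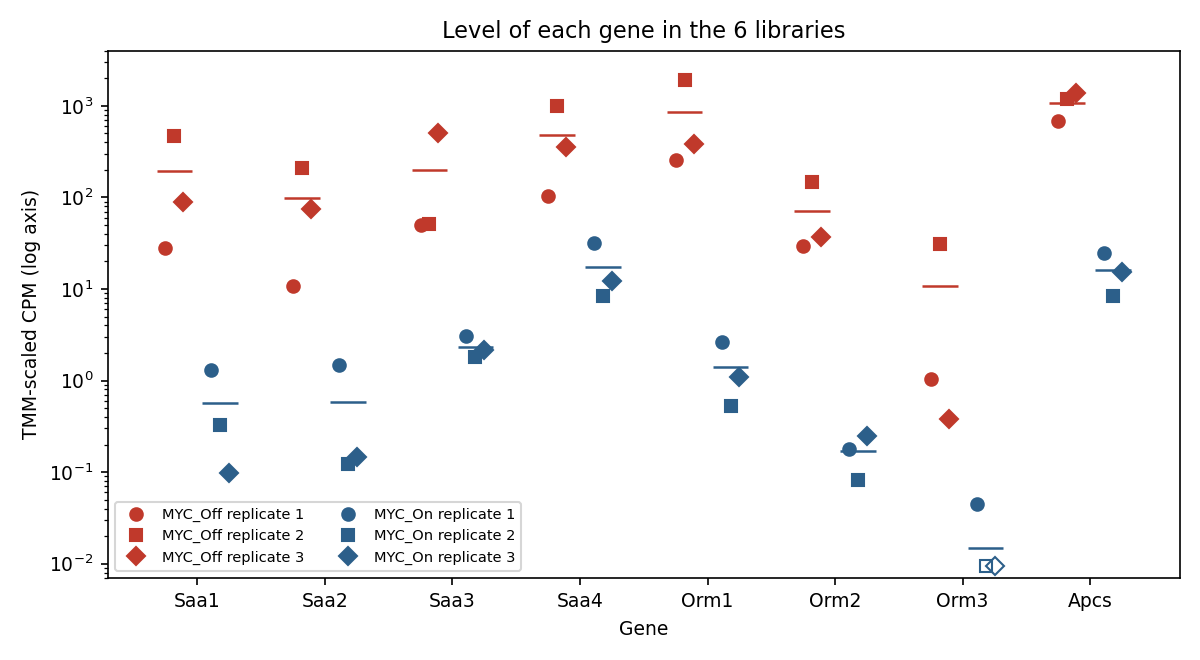
TMM-scaled CPM of each gene on a log axis, with 1 point per library (red MYC_Off, blue MYC_On; marker shape gives the replicate number) and a bar at the mean of 3 libraries; open points at the bottom had 0 reads. In each of the 8 genes every MYC_Off point lies above every MYC_On point, and Apcs, with 691 to 1367 CPM in MYC_Off, has the narrowest spread there.

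The inducible pair Saa1 and Saa2 rose to at least 198 reads in every MYC_Off library, against at most 33 reads in any MYC_On library. Saa1 had 506, 6192 and 1154 reads in MYC_Off replicates 1, 2 and 3 and 29, 8 and 2 reads in MYC_On replicates 1, 2 and 3, which is 27.8, 474 and 88.6 CPM in MYC_Off against 1.29, 0.327 and 0.0986 CPM in MYC_On. Saa2 had 198, 2711 and 975 reads in MYC_Off and 33, 3 and 3 reads in MYC_On, or 10.9, 207 and 74.9 CPM in MYC_Off against 1.47, 0.123 and 0.148 CPM in MYC_On. In both genes MYC_Off replicate 2 was the highest library, and MYC_On replicate 1 held most of the MYC_On reads. Saa1 averaged 197 ± 242 CPM in MYC_Off and 0.573 ± 0.633 CPM in MYC_On (SD, n = 3 each), so its log2 fold change was 8.40 (SE 1.44, adjusted p = 0.0035, edgeR). Saa2 averaged 97.8 ± 100.3 CPM in MYC_Off and 0.580 ± 0.771 CPM in MYC_On, and its log2 fold change was 7.38 (SE 1.42, adjusted p = 0.0052, edgeR). Without MYC_Off replicate 2 the log2 fold changes were 6.53 for Saa1 and 6.05 for Saa2, and without MYC_On replicate 1 they were 9.71 and 9.38, all still called. There were 2.56, 2.28 and 1.18 Saa1 reads per Saa2 read in MYC_Off and 0.879, 2.67 and 0.667 in MYC_On, where few reads stand behind each value.

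Saa3, the form that macrophages and fat cells also make, rose with another spread. It stood at 49.8, 50.9 and 502 CPM in MYC_Off replicates 1, 2 and 3 and at 3.03, 1.80 and 2.17 CPM in MYC_On. The MYC_Off mean of 201 ± 261 CPM therefore rests mostly on replicate 3, against 2.33 ± 0.63 CPM in MYC_On (SD, n = 3 each). The log2 fold change was 6.42 (SE 1.11, adjusted p = 0.0036, edgeR), and 4.34 without MYC_Off replicate 3, still called. The replicate that was highest for Saa1, Saa2 and Saa4 was thus close to the lowest for Saa3. Of 8 macrophage markers 7 rose, with summed levels of 4898, 2125 and 1363 CPM in MYC_Off against 369 to 695 CPM in MYC_On. Most of the sum was Lyz2, and among MYC_Off libraries it was smallest in replicate 3, which had most Saa3. Single markers differed: Adgre1, Csf1r, Lyz2, Marco, Mrc1 and the Kupffer cell marker Clec4f (0 CPM) were lowest in replicate 3. Cd14 was highest there (41.1, 17.0 and 66.4 CPM in MYC_Off), and Cd68 was lowest in replicate 2. Of 8 neutrophil markers 7 were tested and rose, with sums of 166, 159 and 264 CPM in MYC_Off against 0.982 to 2.23 CPM in MYC_On. Of 6 adipocyte markers Plin1 and Lep were at 0 in every library, Adipoq reached at most 0.230 CPM in MYC_Off and 0.0986 CPM in MYC_On, and Fabp4, which macrophages and endothelial cells also express, was the 1 called higher; their sums were 47.1 to 452 CPM in MYC_Off and 26.0 to 50.2 CPM in MYC_On. The part of macrophages and neutrophils in the Saa3 result was not tested.

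Saa4, the constitutive form, had the most reads of the family in MYC_On and the smallest fold change of the 7. It stood at 104, 990.3 and 352 CPM in MYC_Off and at 31.4, 8.47 and 12.2 CPM in MYC_On. The lowest MYC_Off library was 3.31 times the highest MYC_On library, the smallest such gap among the 8 genes. Its means were 482 ± 457 CPM in MYC_Off and 17.4 ± 12.3 CPM in MYC_On (SD, n = 3 each), and its log2 fold change was 4.80 (SE 0.95, adjusted p = 0.0059, edgeR), with 3.59 without MYC_Off replicate 2 and 5.49 without MYC_On replicate 1.

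The make-up of the Saa reads differed between the groups. Saa4 took 54.0%, 57.5% and 34.6% of the family's reads in MYC_Off and 84.4%, 79.0% and 83.5% in MYC_On, with no overlap. Saa1 took 14.4%, 27.5% and 8.71% in MYC_Off and 3.47%, 3.05% and 0.676% in MYC_On. Against Saa4, the log2 ratio of Saa1 reads was higher in MYC_Off than in MYC_On by 3.62 and that of Saa2 by 2.90, each with an exact permutation p = 0.1 (two-sided), the smallest that 3 against 3 libraries can give, and 0.2 after adjustment over 4 such comparisons. For Saa3 against Saa4 the difference was 1.08 (exact permutation p = 0.5) and rested on MYC_Off replicate 3, without which it was 0.02. Without MYC_Off replicate 2 it was 2.41. Saa3 took 25.9%, 2.95% and 49.3% of the family's reads in MYC_Off and 8.14%, 16.8% and 14.9% in MYC_On, so that the groups overlapped.

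**Figure D2:**
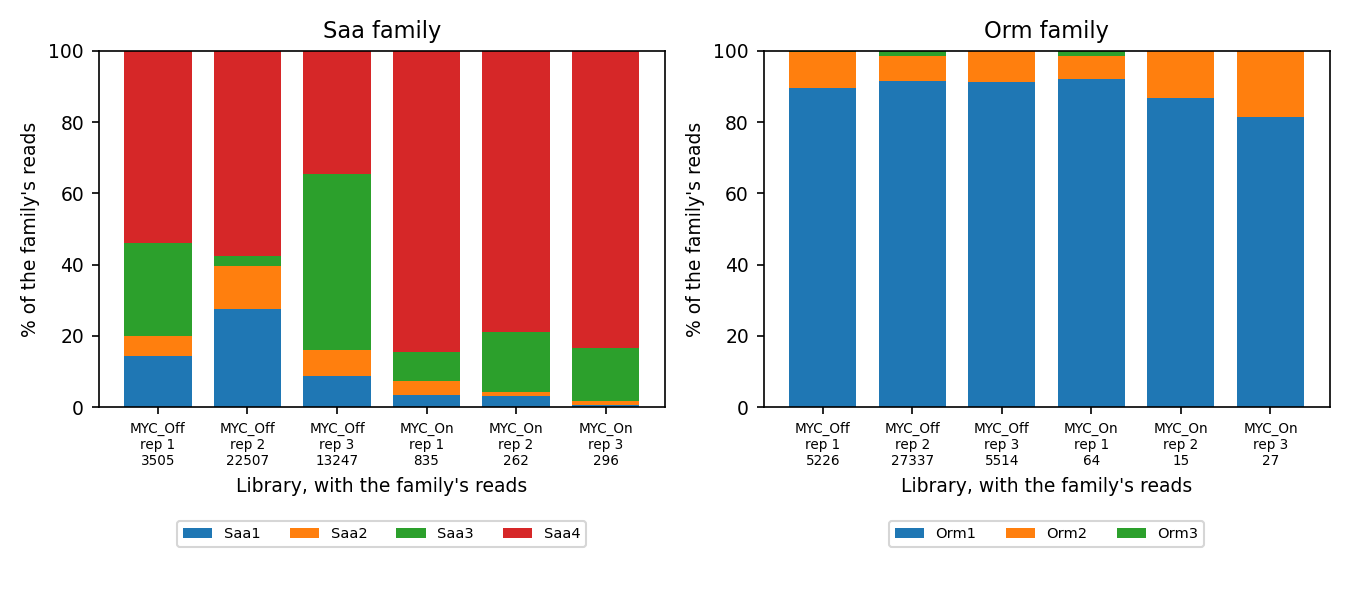
Share of each gene in the reads of its family, in percent, for the 3 MYC_Off libraries on the left and the 3 MYC_On libraries on the right of each panel; the number under each bar is the family's reads. Saa4 makes up 79.0% to 84.4% of Saa reads in MYC_On and 34.6% to 57.5% in MYC_Off, while Orm1 makes up over 80% of Orm reads in every library, with only 15 to 64 reads behind the MYC_On bars.

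Among the orosomucoids, Orm1 held most reads and Orm3 almost none. Orm1 had 4675, 24996 and 5028 reads in MYC_Off and 59, 13 and 22 reads in MYC_On, which is 257, 1913 and 386 CPM in MYC_Off against 2.63, 0.532 and 1.08 CPM in MYC_On. The lowest MYC_Off library was 97.8 times the highest MYC_On library. Orm1 averaged 852 ± 921 CPM in MYC_Off and 1.41 ± 1.09 CPM in MYC_On (SD, n = 3 each), and its log2 fold change was 9.23 (SE 1.21, adjusted p = 0.0015, edgeR), or 7.73 without MYC_Off replicate 2 and 9.99 without MYC_On replicate 1.

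Orm2 had 532, 1934 and 481 reads in MYC_Off and 4, 2 and 5 reads in MYC_On, or 29.2, 148 and 36.9 CPM in MYC_Off against 0.178, 0.0819 and 0.247 CPM in MYC_On. Its lowest MYC_Off library was 119 times its highest MYC_On library, the widest such gap of the 8 genes. The log2 fold change was 8.70 (SE 0.93, adjusted p = 0.00095, edgeR), and 7.50 without MYC_Off replicate 2. Orm3 had 19, 407 and 5 reads in MYC_Off and 1, 0 and 0 reads in MYC_On. Nearly all its reads were thus in MYC_Off replicate 2, at 31.1 CPM, against 1.04 and 0.384 CPM in MYC_Off replicates 1 and 3. Over the groups, 431 reads in MYC_Off against 1 read in MYC_On came to 654 times as many after scaling for depth (95% interval 117 to 25880, for counting error only). When the filter on low counts was left out, Orm3 missed the call (adjusted p = 0.061, edgeR). When Orm3 passed the filter with a library left out, adjusted p was 0.0057 without MYC_Off replicate 3 and 0.058 to 0.065 without 1 MYC_On library.

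The 3 orosomucoids kept their order in every library. Orm1 took 89.5%, 91.4% and 91.2% of the family's reads in MYC_Off and 92.2%, 86.7% and 81.5% in MYC_On. The log2 ratio of Orm2 to Orm1 reads differed by -0.67 between MYC_Off and MYC_On (exact permutation p = 0.4), and Orm3 reached at most 1.49% of the family's reads in MYC_Off.

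Apcs rose most evenly. It had 12581, 15600 and 17793 reads in MYC_Off and 558, 203 and 314 reads in MYC_On, or 691, 1194 and 1367 CPM in MYC_Off against 24.9, 8.31 and 15.5 CPM in MYC_On. The means were 1084 ± 351 CPM in MYC_Off and 16.2 ± 8.30 CPM in MYC_On (SD, n = 3 each), and its log2 fold change was 6.06 (SE 0.59, adjusted p = 0.00085, edgeR). Apcs has no near copy among the annotated transcripts, so its count carries none of the doubt that the Saa1 and Saa2 pair and the Orm genes carry. Its relative Crp, the other liver pentraxin, stood at 279, 554 and 613 CPM in MYC_Off and at 42.7, 15.4 and 36.9 CPM in MYC_On (log2 fold change 3.93, SE 0.52, adjusted p = 0.0016, edgeR). The annotated span of Crp on the plus strand of chromosome 1 (172698055 to 172833031) ends 60930 bases from Apcs.

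The 8 genes divided by the MYC_Off tumour in which they were highest. Saa1, Saa2, Saa4, Orm1, Orm2 and Orm3 were highest in replicate 2, and Saa3 and Apcs in replicate 3. No member was highest in replicate 1, whereas 43.9% of the 4222 genes called higher were, with 29.7% highest in replicate 2 and 26.4% in replicate 3. A low replicate 1 was not particular to the members. In MYC_Off replicates 1, 2 and 3 the other positive acute-phase genes summed to 46140, 102100 and 118000 CPM. The negative acute-phase and other plasma protein genes summed to 110500, 181900 and 304700 CPM, and the hepatocyte markers to 105400, 175700 and 278500 CPM. These last lists share genes, and Alb, at 59067, 105526 and 203650 CPM, makes up most of each sum. Ahsg, also in both, was nearly even, at 24712, 28877 and 27732 CPM. The highest MYC_Off library was 17.0 times the lowest for Saa1, 19.1 times for Saa2, 10.1 times for Saa3, 9.52 times for Saa4, 7.45 times for Orm1, 5.06 times for Orm2, 81.1 times for Orm3 and 1.98 times for Apcs. The median of this ratio over the 4215 genes called higher that had reads in all 3 libraries was 2.87. Of all tested genes, 1.00% had a larger SD of log2(CPM + 1) over the MYC_Off libraries than Saa1, 0.906% than Saa2, 3.33% than Orm1 and 40.4% than Apcs.

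**Figure D3:**
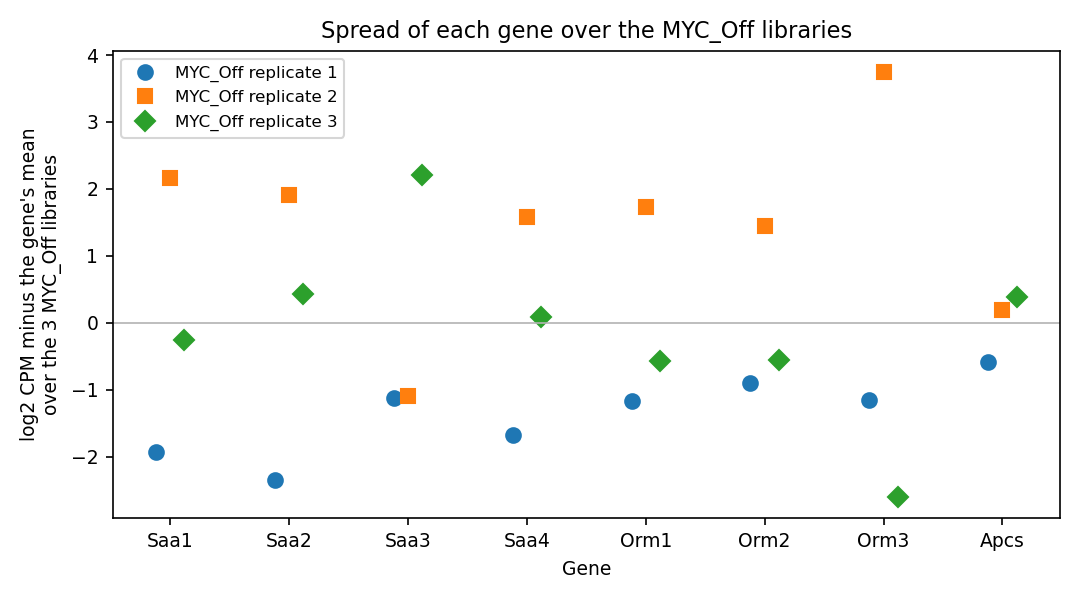
Log2 CPM of each gene in each MYC_Off library minus the gene's mean over the 3 MYC_Off libraries. Replicate 2 (squares) is the highest for 6 genes, replicate 3 (diamonds) for Saa3 and Apcs, and Apcs spans the shortest range, its highest library being 1.98 times its lowest.

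Between members, the profile of log2 CPM over all 6 libraries, centred on each gene's mean, was closest for Saa1 and Saa2, with a mean absolute difference of 0.62, the smallest of 21 pairs, and furthest for Orm1 and Saa4, at 2.17. By the same measure the nearest of 9116 named genes that were tested and had at least 10 CPM in MYC_Off were Etnppl for Saa1 (0.36), Ces1f for Saa2 (0.35), Nfe2 for Saa3 (0.28), Ttc39c for Saa4 (0.30), Rdh7 for Orm1 (0.46), Nr0b2 for Orm2 (0.22) and Sult1a1 for Apcs (0.19). Next came Wfdc21 and Cyp2j5 for Saa1, Cyp2j5 and Necab1 for Saa2, A2ml1 and Cyp39a1 for Saa3, Sugct and Dpyd for Saa4, Hao1 and Serpina3c for Orm1, Abcg5 and Serpina3m for Orm2, and Mpo and Alb for Apcs. Nfe2, a transcription factor of blood cells, stood at 6.37, 6.35 and 93.2 CPM in MYC_Off and at 0.205 to 0.623 CPM in MYC_On, highest in replicate 3 like Saa3. All 6 libraries are shared by every such pair, and the large difference between groups makes up much of each profile. The log2 CPM used a prior count of 2, which draws together genes with few reads. Nr0b2, at 0 to 0.0493 CPM in MYC_On, had a log2 fold change of 10.3 against 8.70 for Orm2. Mpo, at 0 to 0.0986 CPM in MYC_On, had 7.55 and Sult1a1 6.12, against 6.06 for Apcs.

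Levels can be compared between genes only per length, so counts were also divided by exon length and scaled to the same total in every library, as transcripts-per-million (TPM). In MYC_Off, Apcs stood at 2031 ± 293 TPM and Orm1 at 1915 ± 1911 TPM (SD, n = 3 each), and their libraries overlapped: Orm1 was above Apcs in replicate 2, with 4121 against 2053 TPM, and below it in the other libraries. Saa4 followed at 395.5 ± 350 TPM, then Orm2 at 163 ± 135, Saa1 at 135 ± 160, Saa3 at 132 ± 160, Saa2 at 65.6 ± 65.2 and Orm3 at 23.8 ± 37.7 TPM. Neighbours in this order from Saa4 on overlapped, while every Orm1 library was above every Saa4 library with this length. In MYC_On, Apcs (61.3 ± 29.7 TPM) and Saa4 (30.7 ± 21.5 TPM) were the highest and Orm1 (6.70 ± 5.12 TPM) came next with this length. The lengths of Saa1, Saa2 and Saa3 include annotated retained introns: with the principal transcript alone, a length chosen after the data were seen, they came to 434, 200.2 and 488 TPM in MYC_Off, against 312 TPM for Saa4. With that length the lowest Orm1 library in MYC_Off, at 621 TPM, was no longer above the highest Saa4 library, at 624 TPM, and in MYC_On Saa3 (11.5 ± 3.00 TPM) was above Orm1 (4.94 ± 3.82 TPM). The order below Apcs and Orm1 in MYC_Off, and that of Orm1 and Saa3 in MYC_On, thus depends on the length used, while Apcs and Orm1 stayed the highest in MYC_Off with either length.

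Other genes of the acute-phase response rose as well. Of 22 other positive acute-phase genes 21 rose and 0 fell (median log2 fold change 4.43, against 0.18 over all tested genes), the most certain being Lcn2, a siderophore-binding lipocalin and so a relative of the orosomucoids (9.26, SE 0.73), the iron reductase Steap4 (6.45) and Lrg1, a leucine-rich plasma glycoprotein (8.74). The metallothionein Mt1, named after its value was seen, missed the call (2.19, adjusted p = 0.0501, edgeR). Negative acute-phase and other plasma protein genes, which classically fall in inflammation, did so in no case: 9 of 10 rose (median 3.36), among them Ahsg (fetuin A, 5.91), Alb (albumin, 6.10) and Apoa1 (3.51), the main protein of high-density lipoprotein. Of the pentraxin and lipocalin relatives 8 of 8 tested rose (median 3.54), with Crp, Lcn2 and the retinol carrier Rbp4 (3.16) the most certain.

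Genes of the cytokines, receptors and factors of the acute-phase response had smaller fold changes. Of 26 listed, 23 were tested and 18 rose (median log2 fold change 1.61), and 12 with library size only. The interleukin-1 receptor gene Il1r1 rose with the smallest adjusted p (4.32, SE 0.37, adjusted p = 0.0008, edgeR), with the TNF receptor gene Tnfrsf1a (2.11) and the NF-kappaB inhibitor gene Nfkbia (1.92). Both chains of the interleukin-6 receptor rose, Il6ra by 1.61 and Il6st by 2.46, as did Stat3 (1.58) and its feedback inhibitor Socs3 (1.90). Named after their values were seen, the cytokine gene Il1b rose by 4.04 (2.37 without MYC_Off replicate 1), and the receptor genes Osmr and Il1rap by 3.60 and 3.49. Il1b had 365, 52 and 27 reads in MYC_Off replicates 1, 2 and 3, and its call did not hold under every alternative. The cytokine genes Il1a (1.69) and Lif (-0.28) were not called.

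Of the C/EBP factors, Cebpd rose, standing at 22.8, 8.57 and 11.9 CPM in MYC_Off against 0.579, 1.11 and 1.73 CPM in MYC_On (3.66, SE 0.58, adjusted p = 0.0027, edgeR). Its highest library was MYC_Off replicate 1, as for 43.9% of all genes called higher but for no member. Cebpb stood at 25.0, 30.7 and 14.2 CPM in MYC_Off and at 19.8, 16.7 and 21.5 CPM in MYC_On, and the groups overlapped (0.27, adjusted p = 0.51, edgeR). That sign turned with library size only (-0.44). Cebpa (1.17, adjusted p = 0.046, edgeR) lost its call in 9 of the 12 alternatives, and its log2 fold change was 0.75 without MYC_Off replicate 3.

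Hnf4a, which encodes a hepatocyte nuclear receptor, did not pass (0.46, adjusted p = 0.41, edgeR), and its sign turned with library size only (-0.38). Nfkbiz, which encodes a nuclear partner of NF-kappaB, rose by 1.40 and the glucocorticoid receptor gene Nr3c1 by 0.91. Calls of Nfkbiz and Nr3c1 were lost with library size only, and that of Nr3c1 also without MYC_On replicate 2 or 3. The 3 listed genes that did not pass the filter were the cytokine genes Il6, Osm and Tnf; Il6 had 2, 1 and 3 reads in MYC_Off and 0 in each MYC_On library.

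**Figure D4:**
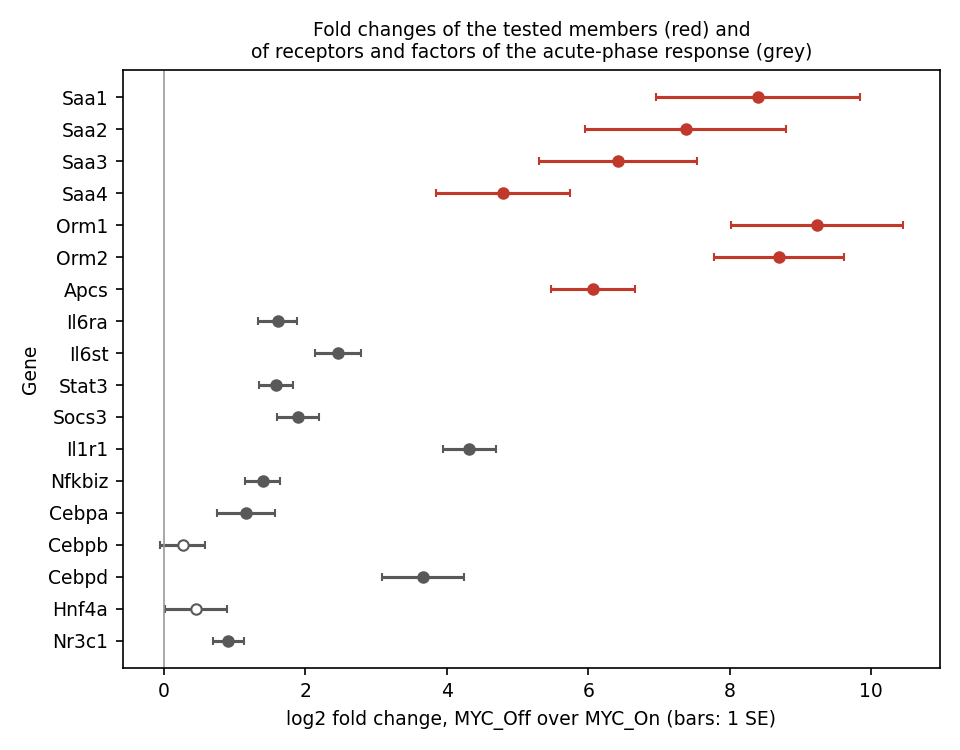
Log2 fold change, MYC_Off over MYC_On, with bars of 1 SE, for the 7 tested members (red) and 11 receptors and factors of the acute-phase response (grey); filled points passed an adjusted p of 0.05. The members lie between 4.80 and 9.23 and the others between 0.27 and 4.32, with Cebpb and Hnf4a as open points.

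Genes for receptors and partners of these proteins rose too, 15 of 17 tested (median log2 fold change 2.45), and 10 with library size only. Asgr1, a chain of the hepatocyte receptor that takes up orosomucoid stripped of its sialic acid, stood at 134, 592 and 366 CPM in MYC_Off and at 4.59, 2.78 and 2.37 CPM in MYC_On (6.81, SE 0.68, adjusted p = 0.00088, edgeR). St6gal1, a sialyltransferase of plasma glycoproteins, rose by 2.56 and Cd36, a scavenger receptor that binds serum amyloid A, by 3.15.

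None of the 5 tested neighbours of the Saa cluster rose, where 29.9% of all tested genes rose and 22.8% fell. Saal1, the nearest, stood at 9.89, 10.1 and 10.8 CPM in MYC_Off and at 21.0, 21.5 and 24.2 CPM in MYC_On, and fell (-1.12, SE 0.23, adjusted p = 0.0065, edgeR). Its start lies 1318 bases from Saa3. On the same side Sergef fell (-1.63) and Tph1 was hardly detected. On the other side Gtf2h1, a subunit of transcription factor TFIIH, and Ldha, the lactate dehydrogenase of glycolysis, fell (-1.74 and -1.41), while Hps5, 6153 bases from Saa2, did not pass (0.55, adjusted p = 0.097, edgeR).

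Around the Orm cluster the neighbours went both ways. Akna, 1247 bases beyond Orm2, rose (2.43, SE 0.76, adjusted p = 0.031, edgeR), with 46.6, 11.9 and 5.61 CPM in MYC_Off against 3.01 to 5.08 CPM in MYC_On, highest in replicate 1 where the Orm genes were not. Ambp, the alpha-1-microglobulin gene and itself a lipocalin of plasma, rose (2.41). Kif12 and Whrn fell (-2.67 and -2.15), and Col27a1 (adjusted p = 0.090) and Atp6v1g1 (adjusted p = 0.052, edgeR) did not pass. Besides Crp, the neighbour of Apcs that was tested, Dusp23, rose (2.24), and the 4 other coding genes nearest to Apcs had under 1 CPM in every library.

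**Figure D5:**
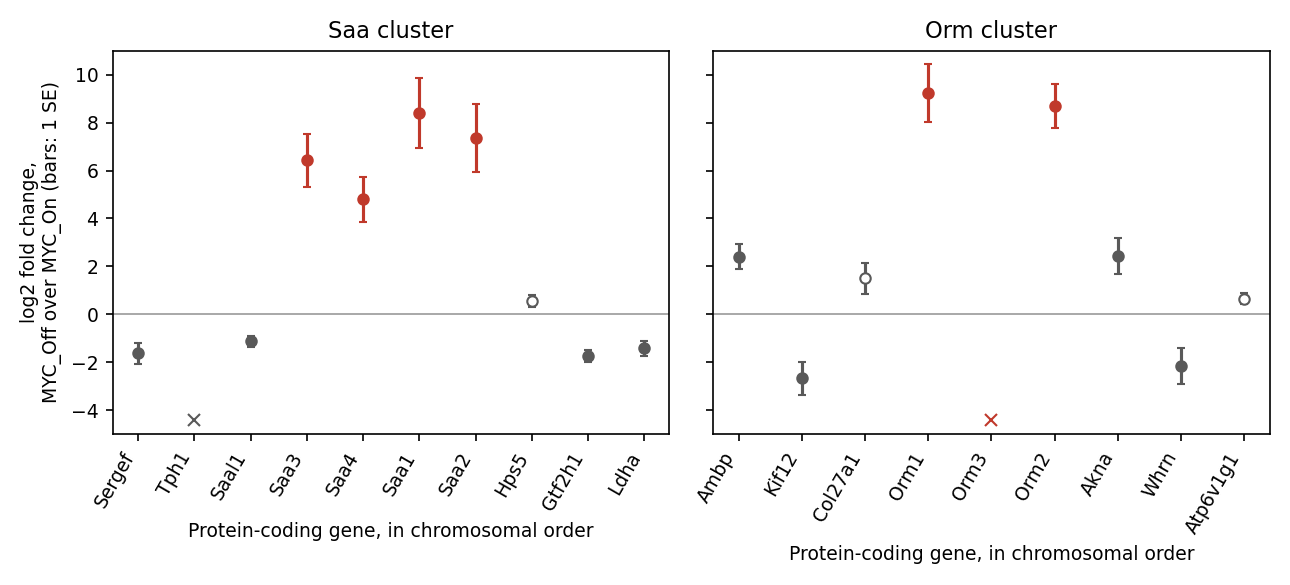
Log2 fold change, MYC_Off over MYC_On, with bars of 1 SE, of protein-coding genes in chromosomal order around the Saa cluster (left) and the Orm cluster (right); red points are members, filled points passed an adjusted p of 0.05, and crosses at the bottom mark genes not tested. The tested Saa and Orm genes lie between 4.80 and 9.23, and no neighbour lies above 2.43.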

How the data were processed

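The deposited table holds whole-number read counts per gene symbol, 1 column per tumour, not normalized by the authors. Per the submitters' processing notes, Trimmomatic, STAR, Picard, featureCounts and DESeq2 were used with mm10; the sources used here give no roles, versions, annotation or strand setting. Groups and replicate numbers came from sample titles, and columns were matched to samples by their sequencing file names. RNA came from frozen tumours, and all 6 libraries share 1 flow cell and lane, per the labels.

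The 8 genes and all gene lists were chosen with earlier results of these data known. All rows were fitted with edgeR 4.0.16 (R 4.3.3): rows kept by filterByExpr at a minimum count of 10 and a minimum total of 15, TMM scaling, robust quasi-likelihood fit and test, Benjamini-Hochberg adjustment, threshold 0.05. SEs were derived from fold change and F. Rows with a date in place of a symbol or with a repeated symbol (26 in all) were kept under row numbers. Within groups no libraries were identical (chi-square per degree of freedom at least 29.1). Ratios within a family used reads plus 0.5 and an exact permutation test. In each list the 3 most certain genes per direction were named, and 12 signalling genes whatever their result, 1 of which is not reported here. Coordinates, lengths and transcripts came from GENCODE M21 (mm10), which matched 91.5% of symbols. As alternatives, scaling used library size only or DESeq2 size factors, and the others were no filter, DESeq2 1.42.0, limma-voom (limma 3.58.1), a replicate block and leaving out each library. The fit was tested on simulated data with 50 genes changed at each size. It recovered 2% of those changed 2-fold, 44% at 4-fold, 86% at 8-fold and 94% at 16-fold, with 5 false calls. A gene that did not pass may still have changed. Near copies were searched with BLAST 2.17.0 and sequences aligned with biopython 1.88. Figures used matplotlib 3.10.9.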

Additional observations from a re-analysis of the deposited data

How the results depend on the processing

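The 7 tested members were called higher in each of 83 values under 12 alternatives, with the highest adjusted p at 0.0463, for Saa2. DESeq2 gave neither a p nor an adjusted p for Saa3, so 6 members were called there. The fold changes of the Saa and Orm genes moved most when 1 library was left out. That of Apcs moved most with library size only, to 5.27, and was 5.70 to 6.46 with 1 library left out. The counts called in the 5 lists held within 1.5 times, and the 4 ratios within families kept their direction under the 7 alternatives run for them. The log2 ratio difference of Saa3 to Saa4 kept only its sign, at 0.02 to 2.41 with 1 library left out. With library size only, 2527 genes were called higher and 5300 lower, with a median log2 fold change of -0.56 over all genes. Leaving out 1 library gave 2776 to 4317 genes called higher. With a replicate block 3152 genes were higher and 2611 lower, and the 7 members kept their calls. Same-numbered libraries deviated from their group means with correlations of -0.262, -0.168 and 0.04, and differently numbered ones with -0.115 to 0.321. Deviations from a mean of 3 libraries are tied to each other, so these values cannot decide whether the numbers pair the tumours. Signs turned for Cebpb (-0.44) and Hnf4a (-0.38) with library size only, and with 1 library left out for Cebpb (-0.033 to 0.43), Serpina6 (-0.16 to 2.87) and Lif (-0.72 to 0.41). None of these 4 was called with TMM and all libraries, and the cause was not tested. Of 16 TPM values under other lengths 5 moved by more than 1 SD, 3 of them those given for Saa1, Saa2 and Saa3 and the others those of Apcs, at 1595 and 1697 TPM. With 1 to 94 MYC_On reads behind Saa1, Saa2 and the Orm genes, depth limits how well their MYC_On level, and with it the size of each fold change, is known.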

Other observations

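Genes that share letters with the families but are no relatives, named here after their values were seen, went their own ways. Ormdl3, which encodes a regulator of sphingolipid synthesis, stood at 37.3, 92.2 and 56.7 CPM in MYC_Off and at 13.0, 12.0 and 12.5 CPM in MYC_On (log2 fold change 2.31, adjusted p = 0.0023, edgeR). Ormdl1 rose by 1.00 (adjusted p = 0.035, edgeR), and Ormdl2, with 11.4 to 24.6 CPM in MYC_Off and 15.3 to 18.7 CPM in MYC_On, did not pass (-0.01, adjusted p = 0.99).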
